A study of Mus musculus with 24 samples.

Results

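The comparison described here sets the 12 nerve libraries given the ERK1/2 inhibitor LY3214996 against the 12 libraries not given it, which together are all 24 libraries of the series. The 12 with the drug are 6 treated with LY3214996 alone (ERKi) and 6 treated with LY3214996 and the CDK4/6 inhibitor abemaciclib (combination). The 12 without it are 6 given vehicle and 6 given abemaciclib alone (CDKi). Every library is RNA of a sciatic nerve from a mouse of genotype Nf1 flox/flox PostnCre+, labelled as being at the plexiform neurofibroma stage and treated for 1 week. All 4 groups therefore carry the same Nf1 deletion, and none has an intact Nf1. The Cre recombinase is driven by the Postn promoter, so the deletion reaches only cells that have used that promoter, while the whole nerve was sequenced. Animal age, sex and dose are not given in the labels, which name each library by a number only and do not say which came from separate animals. The p-values below therefore measure the spread between these libraries. The members of both sides were chosen by treatment label, and presence of abemaciclib entered the model as a second term, so that each library was set against those of its own abemaciclib status.

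Nf1 encodes neurofibromin, a GTPase activating protein that returns RAS to its inactive state. Without it, RAS stays active longer and signals through RAF and MEK to the kinases ERK1 and ERK2, which enter the nucleus and switch on immediate early transcription factors. ERK also induces its own brakes: the phosphatase DUSP6, which dephosphorylates ERK, and the Sprouty and SPRED proteins, which act on RAS and RAF. Other genes that ERK induces encode the ETS factors ETV4 and ETV5, which serve as markers of pathway activity. Plexiform neurofibromas are nerve tumours of Schwann cells with many fibroblasts, macrophages, mast cells and an abundant collagen matrix. Abemaciclib blocks CDK4 and CDK6, kinases that release E2F transcription factors from the retinoblastoma protein.

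The deposited gene counts summed to between 5391543 and 42321550 per library, and 15385 of 24421 genes had enough counts to be tested. Schwann cell and fibroblast genes, among them Mbp, Sox10, Dcn and Lum, had counts in 24 of 24 libraries. Levels are scaled to a common library size as CPM, and a difference is a log2 fold change, LY3214996 given minus not given, with its standard error (SE). Some libraries stood apart in tissue content. Sensory neuron genes were low, with a mean log2 CPM under 6, in 0 of 6 ERKi, 2 of 6 combination, 2 of 6 vehicle and 2 of 6 CDKi libraries. Alb, the liver gene for albumin, exceeded 100 CPM in 1 ERKi and 2 CDKi libraries. Where leaving out the neuron-poor or the Alb-positive libraries moved a list's median by over 1.5 times, the value without them is given beside it. Because whole nerves were sequenced, fewer cells of a type and less RNA per cell cannot be told apart.

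Over all genes, LY3214996 lowered 1 gene in edgeR's quasi-likelihood fit after Benjamini-Hochberg adjustment (0.0065% of genes tested). It raised 0 genes at that threshold. Over 24 repeats that each left out 1 library, the count of calls was 0 in 19 and at most 2. A further measure, an unadjusted p under 0.05, was met by 1503 genes (9.77%), of which 926 were lower (6.02%) and 577 higher (3.75%). The tools differed in their counts: DESeq2 called 73 genes (0.474%), 63 of them lower (0.409%) and 10 higher (0.065%), and limma-voom called 2, among them Hes1. All 73 DESeq2 genes had the same direction and an unadjusted p under 0.05 in edgeR, where their adjusted p was at most 0.276. The statements below follow edgeR, and a gene that did not pass is given by its values.

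**Figure D1:**
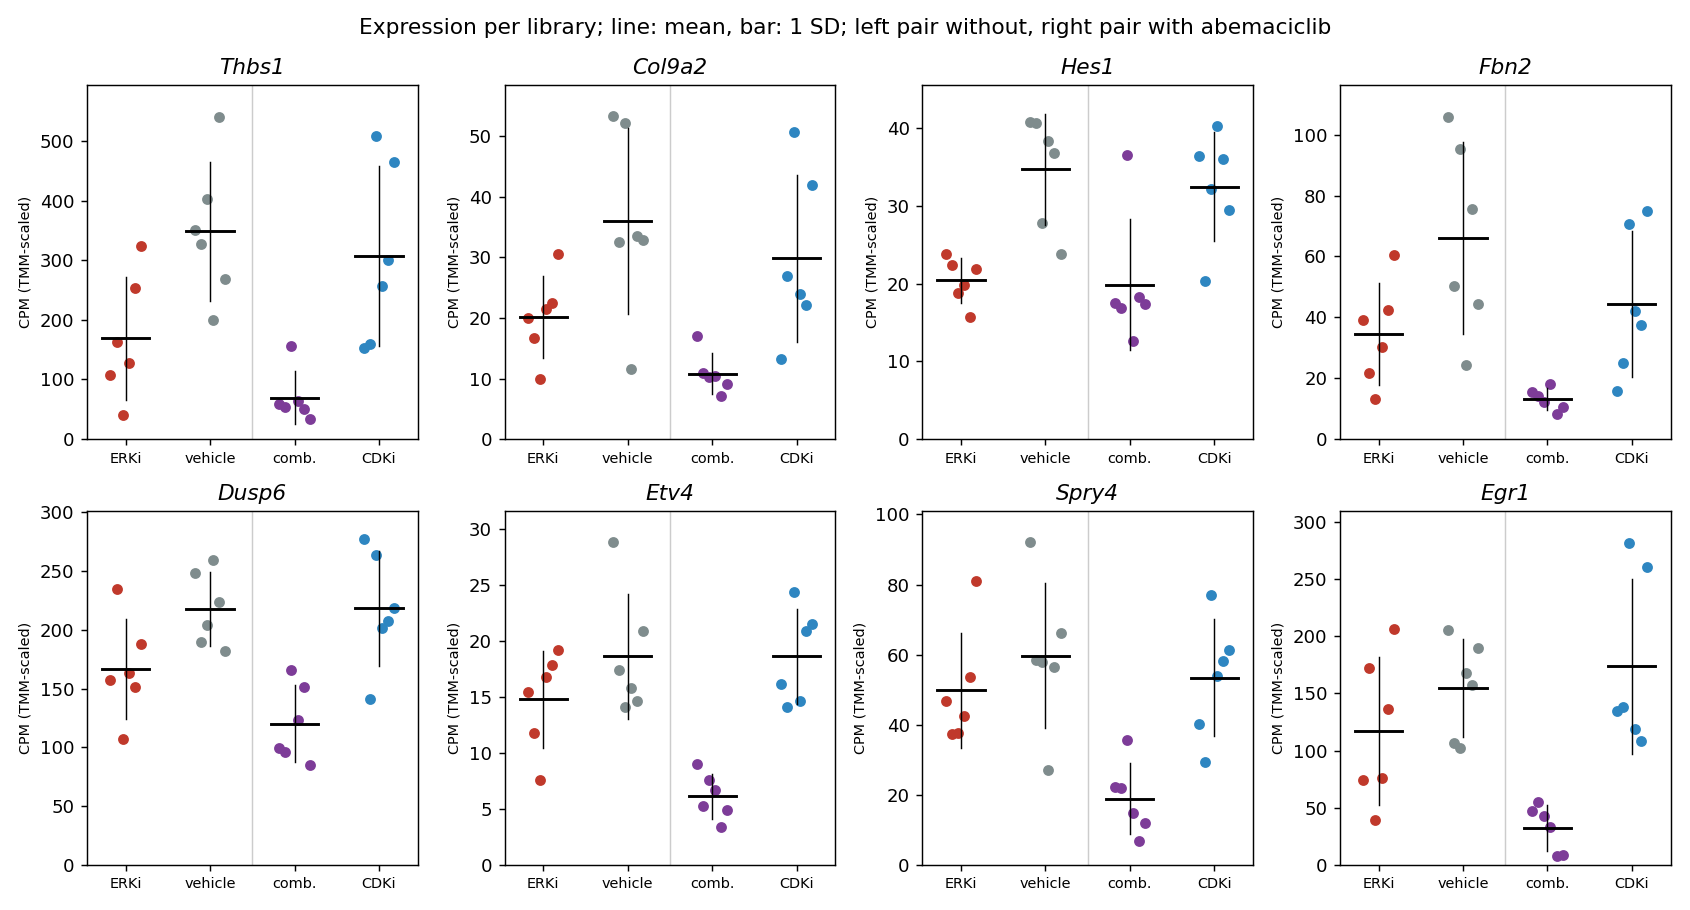
Levels of 8 genes in each of the 24 libraries, in CPM, with the line at the group mean and the bar at ±1 SD (n = 6 per group); within each panel ERKi stands beside vehicle on the left and combination (comb.) beside CDKi on the right. Hes1 was lower in both pairs, whereas Etv4, Spry4 and Egr1 were separated mainly in the right pair.

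The genes of small p described next were singled out after their values were seen and did not pass in edgeR. Thbs1, which encodes thrombospondin 1, a secreted matrix protein that activates latent TGF-beta, was at 34.1, 85.5 and 324 CPM with LY3214996 (lowest, median, highest) and at 153, 313 and 540 CPM without it. Of the 12 treated libraries 8 lay below every untreated one, and the ERKi libraries overlapped vehicle more than combination overlapped CDKi. Its log2 fold change was -1.59 ± 0.33 (adjusted p = 0.156), and it was lower in 12 of 12, meaning that each treated library was below the mean of the untreated ones with the same abemaciclib status.

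Hes1, a Notch target that represses transcription, was at 12.7, 18.6 and 36.6 CPM with the drug and at 20.4, 36.2 and 40.9 CPM without it. Of the 12 treated libraries 8 lay below every untreated one, and combination 3, the highest treated library, lay within the vehicle range. Its log2 fold change was -0.74 ± 0.14 (adjusted p = 0.142, lower in 11 of 12), and by background it was -0.77 ± 0.21 without and -0.71 ± 0.21 with abemaciclib. Without combination 3 its adjusted p was 0.00173, the sole call in that repeat.

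2 more of this set encode matrix proteins, and others act at the cell surface or in lysosomes. Col9a2, a chain of the fibril-associated collagen IX, was at 7.20, 13.8 and 30.6 CPM with the drug, against 11.6, 32.7 and 53.4 CPM without it (log2 fold change -1.14 ± 0.24, adjusted p = 0.185, 12 of 12 lower). Fbn2, the gene of the microfibril protein fibrillin 2, was at 8.40, 16.8 and 60.5 CPM, against 15.9, 47.4 and 106 CPM (-1.34 ± 0.29, adjusted p = 0.185, 11 of 12 lower). In both genes 6 of the 12 treated libraries lay below all untreated ones. Fjx1, which encodes a secreted Golgi-resident regulator named after fly four-jointed, was at 2.27, 2.94 and 6.65 CPM, against 3.88, 5.97 and 10.2 CPM (-0.88 ± 0.18, adjusted p = 0.156). Of its treated libraries 9 were below the whole untreated range. Cyr61, a matricellular growth factor-like protein induced early by serum, had -0.85 ± 0.20 (adjusted p = 0.211, 12 of 12 lower), and the chemokine receptor gene Ccr1 had -1.05 ± 0.24 (adjusted p = 0.211, 12 of 12 lower). Smaller differences with all 12 treated libraries on the lower side were seen for the lysosomal hydrolase genes Arsb (-0.34 ± 0.07) and Aga (-0.36 ± 0.08), for Rdh10 (-0.48 ± 0.11), which makes retinaldehyde from retinol, and for Nt5e (-0.78 ± 0.18), the ecto-enzyme CD73 that produces adenosine, with adjusted p between 0.185 and 0.211. Over all genes, 109 (0.708%) were lower and 82 (0.533%) higher in 12 of 12 treated libraries.

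The direct readout of the drug's target is the set of genes that ERK switches on. Of 30 tested members of the ERK pathway output list, 26 had a lower and 4 a higher value with LY3214996, whereas 46.1% of all tested genes were lower and 53.9% higher. None passed in edgeR after adjustment, 12 of 30 were lower at an unadjusted p under 0.05 and 0 higher, and DESeq2 called 5 of 30, all lower (Dusp6, Etv4, Egr1, Hmga2 and Spred1). The list's median log2 fold change was -0.24, against 0.016 for all tested genes. As a mean over members, the list stood at 4.03, 4.38 and 4.80 log2 CPM with the drug and at 4.60, 4.74 and 5.07 log2 CPM without it (lowest, median, highest). Of the 12 treated libraries 9 were below the lowest untreated one. By pair, 5 of 6 ERKi libraries lay below every vehicle library and 5 of 6 combination libraries below every CDKi library, the exceptions being ERKi 6 and combination 3.

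Among the negative regulators, Dusp6 was at 84.9, 152 and 235 CPM with the drug, against 141, 213 and 277 CPM without it. Treated and untreated libraries overlapped, with 5 of 12 treated ones below all untreated ones. The log2 fold change was -0.62 ± 0.14 (adjusted p = 0.211, lower in 11 of 12). Dusp4, which encodes a nuclear ERK phosphatase, had -0.58 ± 0.21 (adjusted p = 0.356). Spry4, a Sprouty protein that restrains receptor tyrosine kinase signalling to RAS, was at 6.76, 36.5 and 81.0 CPM, against 27.2, 58.0 and 92.0 CPM (-0.88 ± 0.26, adjusted p = 0.263). Again 5 of 12 treated libraries were below the untreated range, and all were combination libraries. Spry1 had -0.38 ± 0.17 and Spry2 -0.20 ± 0.12 (adjusted p = 0.466 and 0.573). Spred1, whose protein brings neurofibromin to the membrane, had -0.36 ± 0.10 (adjusted p = 0.215), with 203, 268 and 372 CPM in treated and 240, 343 and 409 CPM in untreated libraries.

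Among the transcription factors, Etv4 was at 3.41, 8.30 and 19.2 CPM with the drug, against 14.1, 16.8 and 28.9 CPM without it (-0.96 ± 0.21, adjusted p = 0.211). The 8 treated libraries below the untreated range comprised all combination libraries and 2 ERKi libraries. Etv5 overlapped widely, at 20.7, 48.8 and 93.1 CPM, against 43.9, 59.1 and 72.1 CPM (-0.22 ± 0.16, 95% interval -0.54 to 0.10, adjusted p = 0.64). Egr1, the zinc finger factor that ERK induces through serum response factor and its ETS partners, was at 7.51, 51.0 and 206 CPM, against 102, 148 and 281 CPM (-1.41 ± 0.40, adjusted p = 0.249). Of its treated libraries 9 were below all untreated ones. Hmga2, a chromatin architectural factor, was low throughout, with 0.685, 1.33 and 1.93 CPM in treated and 1.31, 2.46 and 7.52 CPM in untreated libraries (-1.08 ± 0.26, adjusted p = 0.211, 12 of 12 lower). Lif, a cytokine gene, had -0.72 ± 0.23, and Phlda1 -0.63 ± 0.20 (adjusted p = 0.292 and 0.281).

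The broader list of immediate early genes was mixed. Of 28 tested members 20 were lower and 8 higher, with 9 lower and 1 higher at an unadjusted p under 0.05, and a median of -0.24. By background, 26 of 28 were lower without abemaciclib, 3 of them at that level. With it 16 were lower and 12 higher, 9 and 1 at that level. Of all tested genes 50% were lower without and 43.8% with abemaciclib. For the difference 5 of 28 had an unadjusted p under 0.05, against 3.69% of all tested genes, and none passed adjustment in edgeR. Among the EGR family Egr3 had -1.14 ± 0.32, and Egr2, which is also the master regulator of myelination in Schwann cells, had -0.79 ± 0.20 (adjusted p = 0.249 and 0.211). Egr2 was at 17, 63.8 and 93.6 CPM with the drug, against 78.9, 97.3 and 156 CPM without it, and 10 of 12 treated libraries were below all untreated ones. Ier2 had -0.72 ± 0.21, Fos -0.64 ± 0.29, Junb -0.37 ± 0.16 and Myc -0.33 ± 0.13, while Jun was at 0.0091 ± 0.11. The exception in direction with an unadjusted p under 0.05 was Atf3, a stress-induced factor of injured neurons and other cells, at 8.68, 18.8 and 38 CPM with the drug and 6.72, 10.7 and 18.5 CPM without it (0.75 ± 0.20, adjusted p = 0.227). Its 6 treated libraries above the untreated range left ERKi largely within it. The list's median depended on the libraries kept, from -0.29 to -0.11 over single omissions.

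Genes upstream of ERK were mixed in direction. Of 36 tested genes of the core pathway from RAS to ERK, 14 were lower and 22 higher (median 0.08, or 0.05 without the neuron-poor and 0.04 without the Alb-positive libraries), with 2 lower and 4 higher at an unadjusted p under 0.05. Of all tested genes 6.02% were lower and 3.75% higher at that level. Without the neuron-poor libraries 1 member was lower and 1 higher at that level, without the Alb-positive libraries 2 and 1, and without ERKi 3, 3 and 1. Nf1 was at 311, 356 and 447 CPM with the drug and at 290, 342 and 429 CPM without it (0.08 ± 0.07, 95% interval -0.05 to 0.20, adjusted p = 0.684), with widely overlapping libraries. Its counts come from all cells of the nerve, and how they relate to the deleted part of the gene was not analysed here. The ERK1 gene Mapk3 had 0.04 ± 0.09 and the MEK gene Map2k1 0.13 ± 0.09. The members at an unadjusted p under 0.05 included Rps6ka2, a kinase that ERK activates (0.50 ± 0.20), the exchange factor gene Sos1 (0.29 ± 0.12) and the RAS relative Mras (-0.45 ± 0.20), with adjusted p from 0.433 to 0.468. Of 34 receptor tyrosine kinases and their ligands 20 were lower, 7 of them at an unadjusted p under 0.05, and 0 were higher at that level. Egfr, the epidermal growth factor receptor, was at 25.9, 56.0 and 92.7 CPM, against 48.1, 83.4 and 147 CPM (-0.68 ± 0.20, adjusted p = 0.263). The ligand genes Pdgfa and Hbegf had -0.45 ± 0.15 and -0.45 ± 0.17.

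The extracellular matrix list had the largest share of members at a low unadjusted p among the lists described here. Of 31 tested members, 30 were lower and 1, the elastin gene Eln, was higher. At an unadjusted p under 0.05, 21 of 31 were lower and 0 higher, none passed adjustment in edgeR, and the median was -0.50. The list mean was 5.95, 7.39 and 8.11 log2 CPM with the drug and 7.03, 8.01 and 8.41 log2 CPM without it. The groups overlapped, and 3 of 12 treated libraries were below all untreated ones. Col1a1, the main fibrillar collagen chain, had -1.14 ± 0.36 (adjusted p = 0.281, 11 of 12 lower), Col3a1 -0.85 ± 0.30 and Col6a2 -0.92 ± 0.28. Fn1, which encodes the adhesive glycoprotein fibronectin, was at 240, 666 and 1866 CPM, against 406, 1550 and 3394 CPM (-1.08 ± 0.33, adjusted p = 0.271, 11 of 12 lower). Mmp2, a gelatinase gene, had -1.02 ± 0.29, and the collagen cross-linking enzyme gene Loxl2 -0.84 ± 0.29. Postn, whose promoter drives the Cre, was at 226, 496 and 853 CPM, against 166, 817 and 1573 CPM (-0.60 ± 0.29, adjusted p = 0.508). Its widest range was among the untreated libraries. In contrast the basement membrane gene Col4a1 had -0.24 ± 0.20 (adjusted p = 0.684).

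Other matrix genes outside that list, named because DESeq2 called them, had values of similar size in edgeR. Vcan, the proteoglycan versican, had -1.05 ± 0.29, Col8a1 -1.06 ± 0.30, the microfibril gene Mfap2 -1.16 ± 0.32 and Col2a1 -1.48 ± 0.45 (adjusted p from 0.227 to 0.274). Of the enzymes that build glycosaminoglycan chains on proteoglycans, 2 that DESeq2 called had lower values too, Xylt1 at -0.74 ± 0.18 (5.01, 11.5 and 20.2 CPM, against 14.1, 18.5 and 29.4 CPM) and Chsy1 at -0.69 ± 0.18. For Xylt1 9 of 12 treated libraries lay below all untreated ones. The protease-activated receptor gene F2rl1 had -1.42 ± 0.37 at levels of 0.25, 1.07 and 4.56 CPM, against 1.2, 3 and 6.99 CPM (adjusted p = 0.211).

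The matrix values moved with tissue content, and the part of that content in them was not tested beyond the repeats given here. Nerve fibroblast genes, the markers of the cells that make most collagen, were lower in 13 of 17 members (6 at an unadjusted p under 0.05, 0 higher, median -0.30). Adding the neuron list to the model gave a median of -0.15, and it was -0.19 without vehicle 1. Lum had -1.14 ± 0.34, Dcn -0.59 ± 0.20, Pdgfra -0.59 ± 0.24 and Cd34 -0.75 ± 0.26, whereas Clec3b, Ly6a and Ly6c1 had values of 0.34 to 0.36. Perineurial genes, of the sheath cells around nerve fascicles, were lower in 9 of 11 (4 at an unadjusted p under 0.05), with a median of -0.21 that was -0.10 without the Alb-positive libraries. All 20 sensory neuron genes were higher (median 0.67, 0 at an unadjusted p under 0.05). The median was 0.37 without the neuron-poor and 0.40 without the Alb-positive libraries. They had summed levels of 2920 to 10710 CPM in ERKi and 81.1 to 4460 CPM in vehicle, and of 105 to 6099 CPM in combination and 73.4 to 4455 CPM in CDKi. When the neuron list entered as a covariate, the matrix median was -0.38, with 15 members lower at an unadjusted p under 0.05, and without the 6 neuron-poor libraries it was -0.41 with 5. Without the 3 Alb-positive libraries it was -0.45 with 19, and without ERKi 3, the lowest library for this list, -0.42 with 18.

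**Figure D2:**
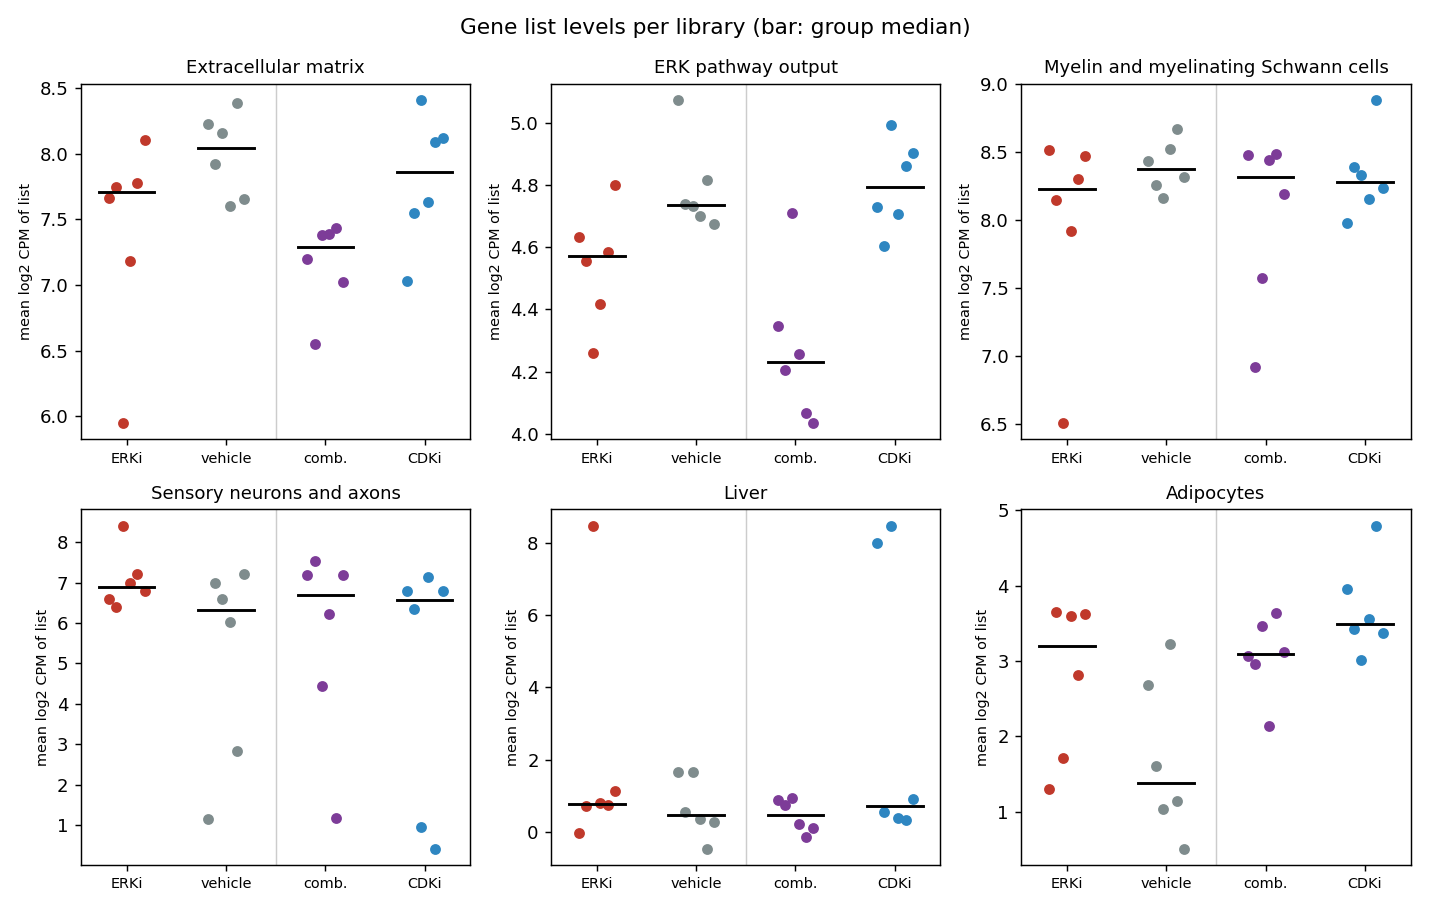
Mean log2 CPM of 6 gene lists in each library, with a bar at the group median; ERKi stands beside vehicle and combination beside CDKi. The ERK pathway output level was below the whole vehicle range in 5 of 6 ERKi libraries and below the whole CDKi range in 5 of 6 combination libraries. The matrix levels overlapped, and some libraries carried liver transcripts or had low levels of neuron transcripts.

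Genes of TGF-beta signalling include ligands, signal transducers and matrix-bound regulators. Of 19 members 14 were lower, 6 at an unadjusted p under 0.05, with a median of -0.11, which was -0.05 with the neuron covariate. As a mean over members, this list too was below all untreated libraries in 9 of 12 treated ones, with 5 of 6 ERKi libraries below every vehicle library and 5 of 6 combination libraries below every CDKi library. The members at an unadjusted p under 0.05 included Tgfbi, a TGF-beta induced matrix protein (-0.94 ± 0.24, 92.9, 171 and 382 CPM against 157, 310 and 641 CPM), the latent TGF-beta binding protein genes Ltbp2 (-0.69 ± 0.30) and Ltbp1, the signal transducer Smad3 (-0.48 ± 0.15) and Tgfb1 (-0.28 ± 0.13). The inhibitory Smad7, a standard readout of the pathway, was at -0.05. Of 16 YAP and TEAD targets 11 were lower, 2 at an unadjusted p under 0.05, and Ctgf was at -0.24.

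No gene was raised at the adjusted threshold in edgeR. The 10 higher genes of smallest p had log2 fold changes from 0.25 to 0.63 and adjusted p from 0.142 to 0.224. Lzts3, which encodes a leucine zipper protein of postsynaptic sites, was at 20.3, 24.0 and 29.1 CPM with the drug and 15.2, 19.3 and 23.4 CPM without it (0.34 ± 0.07, adjusted p = 0.142, 12 of 12 higher). Of the treated libraries 8 lay above all untreated ones, and by background the value was 0.35 ± 0.10 without and 0.34 ± 0.10 with abemaciclib. Map3k13, the leucine zipper kinase of JNK signalling in axons, was at 11.5, 18.9 and 26.3 CPM, against 8.64, 14.1 and 16.9 CPM (0.51 ± 0.12, adjusted p = 0.211). Dusp8, a phosphatase of JNK and p38, had 0.44 ± 0.11, Rcan2, an inhibitor of calcineurin, 0.57 ± 0.15, Rasgef1b, an exchange factor for small RAS-like GTPases, 0.63 ± 0.16, and Tbc1d4, a RAB GTPase activator in glucose transport, 0.38 ± 0.09. The other 4, Stk38l, Jmjd4, Macrod2 and Gtpbp8, had 0.25 to 0.40. Neuron-rich ERKi 3 was the highest LY3214996 library for Map3k13, and without it Map3k13 was at 0.45. Its lowest untreated libraries, vehicle 5 and CDKi 5 (8.64 and 9.23 CPM), were neuron-poor. So were the lowest untreated ones for Rcan2, vehicle 1, CDKi 5 and vehicle 5 (87.4, 88.6 and 90.1 CPM). Neuron-poor combination 5, in contrast, had 18.6 CPM of Map3k13 and 254 CPM of Rcan2.

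**Figure D3:**
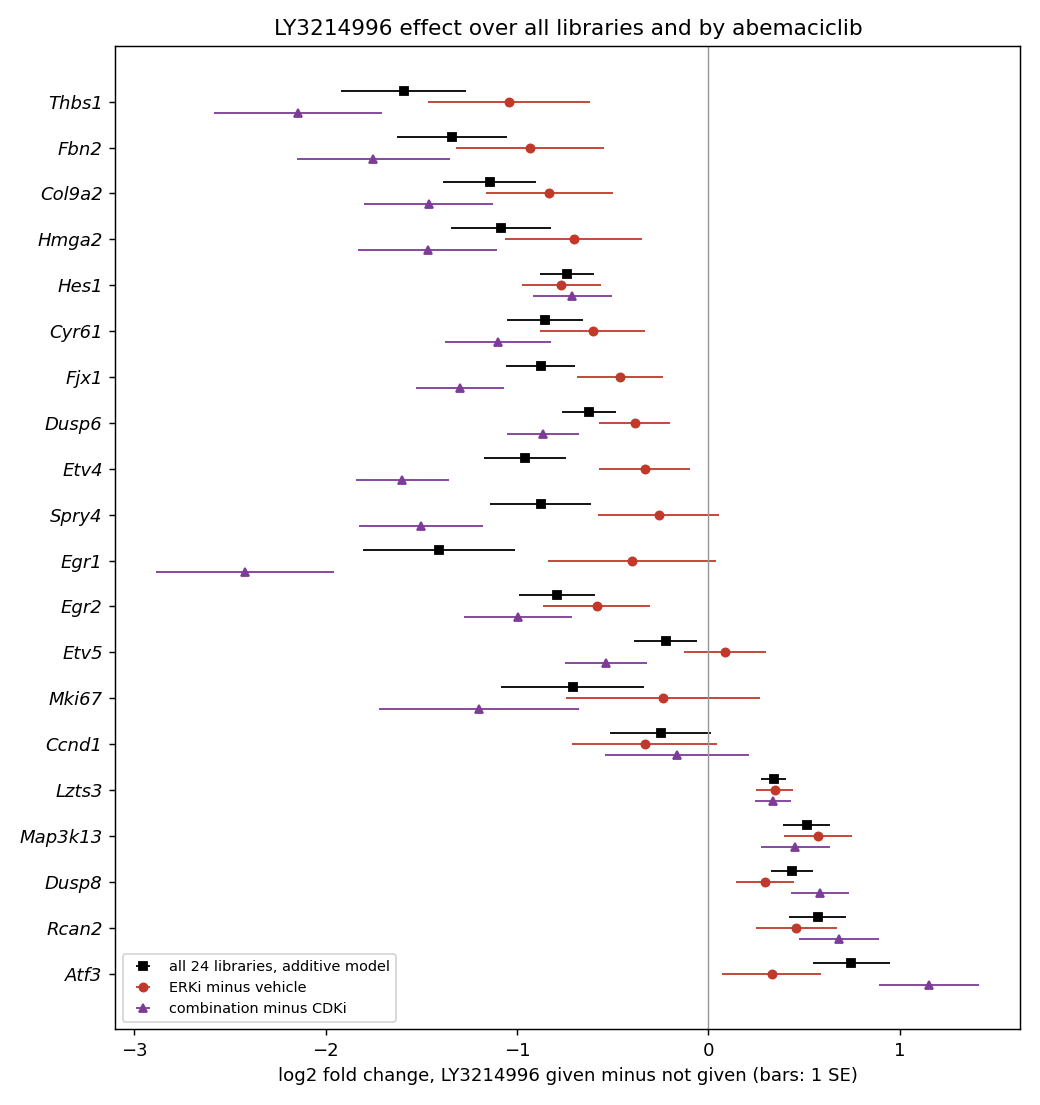
Log2 fold change with a bar of 1 SE for 20 genes from all 24 libraries (square), from ERKi minus vehicle (circle) and from combination minus CDKi (triangle). Hes1 and Lzts3 lie close together in all 3 estimates, while Etv4, Spry4 and Egr1 lie lower in combination minus CDKi.

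For several ERK targets the value with abemaciclib lay below the value without it, but no difference between backgrounds passed adjustment in edgeR. Without abemaciclib, ERKi against vehicle, 0 genes passed in edgeR, 975 had an unadjusted p under 0.05 (6.34%; 2.91% lower and 3.43% higher) and DESeq2 called 2, Cdo1 and Hp, of which Cdo1 was called without the 3 Alb-positive libraries. With abemaciclib, combination against CDKi, 1 gene passed (0.0065%) and 1087 had an unadjusted p under 0.05 (7.07%, with 4.71% lower and 2.36% higher). DESeq2 called 78 of 15385 tested genes there. Of these 78, 18 had log2 fold changes past 3 in size. The 78 included 5 of 8 tested liver genes and 7 of 30 tested ERK pathway output genes. Without the 3 Alb-positive libraries, of which 2 are CDKi libraries, DESeq2 called 46 of 15555 tested genes. Among them were 24 of the 78, 0 of the 18 and 4 of ERK pathway output (Etv4, Egr1, Hmga2 and Spry4). At any p, 50% of genes were lower without abemaciclib, and 43.8% were lower and 56.2% higher with it. The gene that passed was Etv4, which fell to 6.14 ± 2.01 CPM in combination, against 18.6 ± 4.22 CPM in CDKi (SD, n = 6 each; log2 fold change -1.60 ± 0.24, adjusted p = 0.0167). In the RefSeq annotation of GRCm38.p6 Etv4 lies on chromosome 11 between bases 101769747 and 101785310. Its groups did not overlap, with 8.99 CPM the highest in combination and 14.1 CPM the lowest in CDKi. In ERKi Etv4 averaged 14.8 ± 4.36 CPM and in vehicle 18.6 ± 5.57 CPM (-0.33 ± 0.24). The Etv4 call was kept in 17 of 24 repeats that left out 1 library, and was lost without CDKi 3, CDKi 5, CDKi 6, combination 2, combination 4, combination 5 or combination 6. The difference between both effects was -1.27 ± 0.34 (unadjusted p under 0.05, adjusted p = 0.409).

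Egr1 averaged 32.5 ± 20 CPM in combination and 174 ± 76.7 CPM in CDKi (-2.42 ± 0.46), and 117 ± 64.8 CPM in ERKi and 155 ± 42.5 CPM in vehicle (-0.40 ± 0.44). All 6 combination libraries were below all CDKi libraries, whereas ERKi overlapped vehicle. The difference of these effects had an unadjusted p under 0.05 and an adjusted p of 0.846. Spry4 averaged 18.9 ± 10.1 CPM in combination and 53.4 ± 16.7 CPM in CDKi (-1.50 ± 0.33), and 49.8 ± 16.4 CPM in ERKi and 59.7 ± 20.8 CPM in vehicle (-0.26 ± 0.32), and the difference had an unadjusted p under 0.05 (adjusted p = 0.988). Dusp6 had -0.86 ± 0.19 with and -0.38 ± 0.19 without abemaciclib (adjusted p of the difference 0.988), and Etv5 had -0.53 ± 0.22 and 0.09 ± 0.22. As a list, ERK pathway output was lower in 25 of 30 members with and in 24 of 30 without abemaciclib, with medians of -0.26 and -0.25. At an unadjusted p under 0.05, 13 of 30 were lower with and 1 of 30 without abemaciclib, and 4 of 30 had an unadjusted p under 0.05 for the difference. Of all tested genes 4.71% were lower at that level with and 2.91% without abemaciclib. Over all 15385 tested genes the difference had 0 calls in edgeR, 568 genes at an unadjusted p under 0.05 (3.69%) and 48 calls in DESeq2. None of these 48 is an ERK pathway output gene, 7 belong to the liver list, and 42 had differences past 3 in size on the log2 scale. Without the Alb-positive libraries DESeq2 called 1 gene for the difference, Cdo1. The matrix list was lower in 30 of 31 members with and in 29 of 31 without abemaciclib (medians -0.59 and -0.55), and 0 of 31 had an unadjusted p under 0.05 for the difference.

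Genes at an unadjusted p under 0.05 and lower on both backgrounds numbered 69, which is 15.4% of those lower without and 9.53% of those lower with abemaciclib. For higher genes the number was 20 (3.79% and 5.51%). Of all tested genes 4.71% were lower and 2.36% higher at that level with abemaciclib, and 2.91% lower and 3.43% higher without it. Over all tested genes the log2 fold changes on both backgrounds had a Pearson r of -0.177 and a Spearman rho of 0.315, and 59.8% had the same sign. The 2 contrasts share no library.

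Proliferation genes were examined because ERK drives entry into the cell cycle. Ccnd1, the cyclin D1 gene that mitogens induce through ERK, was at 127, 287 and 796 CPM with the drug and at 139, 344 and 700 CPM without it (-0.25 ± 0.26, 95% interval -0.76 to 0.27, adjusted p = 0.739), with complete overlap apart from the extremes. Mki67 was at 1.01, 9.04 and 19.7 CPM, against 2.62, 12.6 and 21.6 CPM (-0.71 ± 0.37, adjusted p = 0.547), and Top2a had -0.73 ± 0.44 (adjusted p = 0.581). Of 30 G2/M and mitosis genes 28 were lower (median -0.29), 4 at an unadjusted p under 0.05 and none after adjustment. Cyclin B1, Ccnb1, had -1.26 ± 0.51 and the checkpoint kinase gene Bub1 -0.75 ± 0.34. The number of mitosis genes lower at an unadjusted p under 0.05 ranged from 0 to 9 over single omissions. E2F and replication genes were split, with 20 of 35 lower and a median of -0.03, and Mcm2 was at -0.06 ± 0.13. The CDK inhibitor gene Cdkn1a had -0.17 ± 0.16 (adjusted p = 0.705). Among apoptosis regulators, Bcl2l11, which encodes BIM, a killer protein that ERK marks for degradation and represses, was at 23.6, 32.9 and 61.1 CPM with and 20.9, 24.9 and 40.8 CPM without the drug (0.32 ± 0.15, adjusted p = 0.494).

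Schwann cell genes differed by list. Of 23 myelin genes 21 were lower (median -0.28), 4 at an unadjusted p under 0.05, led by Egr2 and with Mag at -0.47 ± 0.22, Pmp22 at -0.44 ± 0.27 and Mbp at -0.16 ± 0.20. ERKi 3 was the lowest library for this list and without it the median was -0.19. Without the neuron-poor libraries it was -0.12, with 1 member at an unadjusted p under 0.05, and with the neuron covariate -0.14. Genes shared by all Schwann cells had a median of -0.10 (-0.02 without ERKi 3, -0.03 without the Alb-positive libraries), with 8 of 12 lower, and Sox10 was at -0.07. Genes of non-myelinating and repair Schwann cells went both ways, with 9 of 17 higher and 8 lower and a median of 0.005. At an unadjusted p under 0.05, 1 was higher and 0 lower. The median was -0.06 without the neuron-poor and 0.05 without the Alb-positive libraries. Ngfr, the p75 receptor of these cells, had 0.51 ± 0.22 (adjusted p = 0.464), and its highest library was ERKi 3 at 230 CPM. Genes of cholesterol synthesis, which myelinating cells use heavily, and of its uptake and export were lower in 23 of 25 members (median -0.19). By background, 22 of 25 were lower with abemaciclib (median -0.54, 12 at an unadjusted p under 0.05) and 10 of 25 without it (median 0.04, 0 at that level). Hmgcs1, an enzyme gene of synthesis, had -0.58 ± 0.20. The 2 higher members, the exporters Abcg1 and Abca1, had 0.38 ± 0.11 and 0.49 ± 0.23. Of the 25 genes 3 had an unadjusted p under 0.05 for the difference, and without the neuron-poor libraries, to which 2 combination and 2 CDKi libraries belong, the median was -0.03.

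Among the other cells of the tumour, endothelial genes were higher in 13 of 14 members (median 0.31), 3 at an unadjusted p under 0.05. By background the median was 0.55 with abemaciclib, with 7 of 14 higher at an unadjusted p under 0.05, and 0.08 without it, with 0 at that level, and 0 of 14 had an unadjusted p under 0.05 for the difference. Flt1 and Kdr, the VEGF receptors, had 0.51 ± 0.20 and 0.42 ± 0.18 (adjusted p = 0.406 and 0.466), and Pecam1 and Cdh5 had 0.25 ± 0.25 and 0.23 ± 0.18. The list mean was 3.05, 3.98 and 5.18 log2 CPM with the drug and 3.23, 3.75 and 4.61 without it, so the groups overlapped nearly fully. After adding the neuron covariate the median was 0.42 with 10 of 14 at an unadjusted p under 0.05, and without combination 3 it was 0.14. Macrophage genes were lower in 15 of 18 (median -0.20), 4 at an unadjusted p under 0.05. The median was -0.11 without the Alb-positive libraries, -0.10 with the neuron covariate and -0.08 without CDKi 3. These 4 mark resident macrophages, or clear dead cells in the case of Mertk: Timd4 -1.16 ± 0.35, Folr2 -0.75 ± 0.30, Lyve1 -0.64 ± 0.21 and Mertk -0.48 ± 0.22. Of 18 chemokine genes 13 were lower, 7 at an unadjusted p under 0.05 and 1 higher (median -0.46). That median was -0.15 without the Alb-positive libraries, -0.25 without vehicle 4 and -0.05 with no count filter. The monocyte attractants Ccl2 and Ccl7 had -1.22 ± 0.42 and -0.93 ± 0.42, and Cxcl12 had 0.52 ± 0.18. Cxcl9 had -1.42 ± 0.66 but stayed under 2.55 CPM in every library. Type I interferon genes had no common direction: 20 of 24 were lower without and 23 of 24 higher with abemaciclib.

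**Figure D4:**
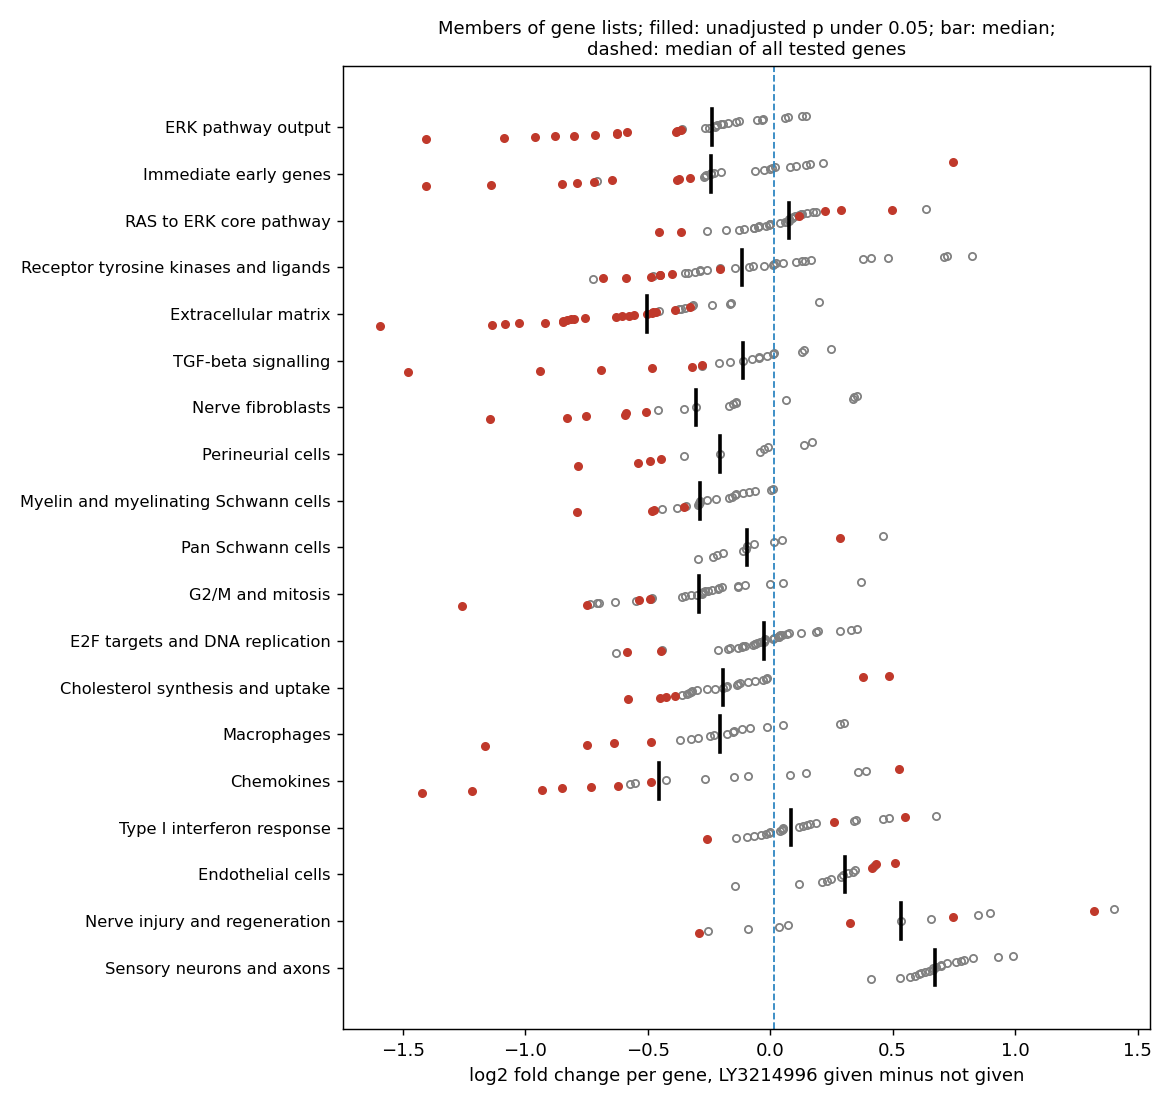
Log2 fold change of each member of 19 gene lists, LY3214996 given minus not given, filled where the unadjusted p is under 0.05, with a black bar at the list median and a dashed line at the median of all tested genes. The matrix list has 21 of 31 filled points, all lower, and the neuron list has 20 points to the right with none filled.

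Nerve injury genes were higher in 10 of 13 members (median 0.53), 3 at an unadjusted p under 0.05 and 1 lower. Npy, a neuropeptide gene, had 1.32 ± 0.56, Sprr1a 1.40 ± 0.81 and Sox11 0.90 ± 0.57 (adjusted p from 0.454 to 0.6). After adding the neuron covariate the median was 0.10, without the neuron-poor libraries 0.24 and without the Alb-positive libraries 0.30. Adipocyte, skeletal muscle and liver genes took opposite signs on the 2 backgrounds. Their medians were 1.12, 2.17 and 6.52 for ERKi minus vehicle and -0.71, -2.20 and -7.36 for combination minus CDKi. For skeletal muscle, the mean log2 CPM of the list had a median of 0.90 in combination and 0.16 in CDKi, where CDKi 5 reached 5.56. Over all 24 libraries the median log2 fold change of skeletal muscle genes was -0.25. Without CDKi 5 it was 1.84, and without the neuron-poor libraries 2.19. The liver values follow the 3 Alb-positive libraries, 1 in ERKi and 2 in CDKi.

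The second term of the same model, abemaciclib given minus not given, had 0 calls in edgeR and 1160 genes at an unadjusted p under 0.05 (7.54%). Dusp6 had -0.24 for that term.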

How the data were processed

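Bulk RNA-seq of 24 nerve libraries was used, 6 per group. Per the labels' protocols, total RNA was depleted of ribosomal RNA and made into libraries with a Roche KAPA kit, and the molecule field names polyA RNA. The values are gene counts deposited by the authors, not normalized. FastQC, STAR, DESeq2 and mm10 are named in the submitters' processing notes, without versions or roles, and the strand setting is not given in the sources used here, so overlapping and antisense genes cannot be told apart.

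Counts were tested in R 4.3.3 with edgeR 4.0.16 (robust quasi-likelihood, TMM scaling, filterByExpr with a minimum count of 10 and a total of 15), with abemaciclib and LY3214996 as additive terms and Benjamini-Hochberg adjustment at 0.05 (21 residual degrees of freedom). Both backgrounds and their difference came from a model with a mean per group (20 residual degrees of freedom). Mean log2 CPM used a prior count of 2. DESeq2 1.42.0 and limma 3.58.1 were alternatives. The edgeR script was tested on simulated data. No 2 libraries of a group agreed within counting noise (lowest chi-square per degree of freedom 19.6 over 60 pairs). Depth limits precision: 3 counts correspond to 0.0709 to 0.556 CPM.

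Members, gene lists and tests were chosen with earlier results of these data known. Named were 10 fixed genes, genes passing the adjusted threshold with at least 10 of 12 libraries on one side, or the 10 of smallest p where none did, and list members of small p. Results for some genes are not reported here. Further lower genes were named after their values were seen. Gene coordinates are RefSeq's on GRCm38.p6, where 99.6% of table symbols matched.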

Additional observations from a re-analysis of the deposited data

Results flagged for a closer look

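Within a group of 6 libraries, 1 library stood far from the other 5 in 46 of the 580 groups checked (7.93%), where chance alone marks about 1 in 20 groups. Values are log2 CPM, or mean log2 CPM for a gene list.

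ERKi 3 stood apart in 16 of the 46. It was high for Pmaip1 (2.34), Ngfr (7.85) and Dusp8 (4.92) and for the lists Liver (8.46), Heat shock (7.08), Monocytes and neutrophils (2.94) and Dendritic cells (1.93). It was low for Cyr61 (2.61), Cspg4 (5.99), Sema6a (5.51), Vcan (5.53), Pdgfra (5.50) and Spry2 (4.81), and for the lists Myelin and myelinating Schwann cells (6.51), Pan Schwann cells (7.38) and Receptor tyrosine kinases and ligands (4.87). The same library had Alb at 4543 CPM and the highest neuron level. Without it the values of Cyr61 and of the myelin list were -0.77 and -0.19.

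Combination 3 was high for Hes1 (5.20), Spred1 (8.54) and Stk38l (5.65) and low for Abcg1 (5.94). Elsewhere in combination, Cspg4 was low in combination 2 (6.85), Dusp8 in combination 4 (4.07), Rfc3 in combination 1 (1.5) and the Heat shock list in combination 5 (6.05). ERKi 2 was low for Abcg1 (5.84) and high for Satellite glia (7.13).

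Vehicle 4 was low for Col9a2 (3.55), Arsb (6.28), Aldh18a1 (3.39), Nrn1 (6.58), Il33 (5.54), Col2a1 (2.54) and Chsy1 (4.11). Vehicle 1 was high for the lists ERK pathway output (5.07) and Pericytes and smooth muscle (4.25) and low for Integrated stress response and amino acid genes (3.70) and for Ltbp2 (0.532). Vehicle 2 was low for Spry1 (3.56), and vehicle 3 was high for Pmaip1 (0.784) and Mast cells (3.28). In CDKi 5, Pmaip1 (-1.39) and Rasgef1b (2.19) were low and Egr2 (7.28) was high. Etv5 (5.46) and Spred1 (7.91) were low in CDKi 2, and Ttk (0.189) in CDKi 1.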

How the results depend on the processing

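The count of 1 gene changed over all 24 libraries became 73 with DESeq2 and 2 with limma-voom. It was 0 with no count filter, with the average of group means, with the title number series, sex, or the neuron, adipocyte or skeletal muscle list as a term, without the neuron-poor and without the deepest and shallowest libraries. Over single omissions it ranged from 0 to 2 and was 0 in 19 of 24. The other settings gave 1 gene. DESeq2 called 2 genes without abemaciclib, 78 with it and 48 for the difference, where edgeR called 0, 1 and 0. Without the Alb-positive libraries, a setting chosen after seeing the data, DESeq2 called 1, 46 and 1. With abemaciclib the count was 0 without the neuron-poor libraries and 0 to 6 over single omissions, and for the difference 0 to 1. No called result reversed its direction in these settings, and the cause of the changed counts was not tested. The title series is a term from the library numbers, not a stated batch. Sex was read from Y-linked counts. No paired analysis was possible because the labels give no replicate numbers that groups share. Counts of genes with few reads are limited by the shallowest library, vehicle 3.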

Other observations

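Promoters were searched for short motifs on both strands in the RefSeq windows from 250 bases before to 50 bases after the start, on GRCm38.p6. Of the 30 tested ERK pathway output genes 22 had a window, and those with none included Dusp4, Spry4, Etv4, Phlda1, Ccnd1, Egr1 and Bmp2. The ETS letters CCGGAAG were found in 0 of 22, against 16.1% of 11475 windows of tested genes. The AP-1 letters TGANTCA were found in 3 of 22 (13.6%), against 5.20%, and the CRE letters TGACGTCA in 1 of 22 (4.55%), against 3.14%. A match is a description of letters, not of binding.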
